A study of Mus musculus with 6 samples.

Results

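Transcripts of 10 genes of bone morphogenetic protein (BMP) signalling were followed across the exit of mouse cells from naive pluripotency. They were the ligand genes Bmp4 and Bmp7, the pseudoreceptor gene Bambi, the inhibitory SMAD genes Smad6 and Smad7, the ID genes Id1, Id2, Id3 and Id4, and the homeobox gene Msx1. Members were taken by symbol through their Ensembl identifiers on GRCm38, and each of the 10 symbols matched 1 of 51826 Ensembl rows of the deposited count table. The EpiLC group held 3 libraries of epiblast-like cells, collected on day 3 without LIF and without the GSK3 and MEK inhibitors known as 2i. The ESC group held 3 libraries of embryonic stem cells kept in LIF and 2i. All 6 libraries came from wild-type cells of the V6.5 embryonic stem cell line, in Knockout DMEM with 15% fetal bovine serum. The labels name no added growth factor for EpiLC. They also do not say whether the replicates were separate cultures, so p-values measure the spread between these libraries, which may be technical.

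BMP ligands are secreted dimers that bind type I and type II receptor kinases. The type I receptor then phosphorylates SMAD1, SMAD5 or SMAD9, which enter the nucleus with SMAD4 and switch on targets, the ID genes first among them. SMAD6, SMAD7 and BAMBI are themselves induced by the pathway and act back on it as inhibitors. ID proteins have a helix-loop-helix without a DNA-binding region and hold E proteins away from DNA. In mouse embryonic stem cells, BMP together with LIF is known to sustain self-renewal through ID proteins, and in the embryo BMP4 from the extraembryonic ectoderm patterns the epiblast.

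The ID genes are close relatives, and their sequences show how far reads can be told apart. The coding stretch of 120 bases in which the 4 mouse ID genes were most alike lies in the helix-loop-helix region. It was read from the GENCODE M21 transcripts on GRCm38 at chr2:152736518-152736637 (plus strand) for Id1, chr12:25095783-25095902 (minus strand) for Id2, chr4:136144002-136144121 (plus strand) for Id3 and chr13:48261693-48261812 (plus strand) for Id4. Capitals mark the 69 bases that are identical in all 4 genes.
Id1: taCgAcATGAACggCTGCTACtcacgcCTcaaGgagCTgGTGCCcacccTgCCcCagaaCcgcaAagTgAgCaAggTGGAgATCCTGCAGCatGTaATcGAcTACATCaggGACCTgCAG
Id2: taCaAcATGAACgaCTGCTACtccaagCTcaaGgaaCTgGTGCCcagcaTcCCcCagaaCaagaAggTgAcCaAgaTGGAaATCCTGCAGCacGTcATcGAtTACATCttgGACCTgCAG
Id3: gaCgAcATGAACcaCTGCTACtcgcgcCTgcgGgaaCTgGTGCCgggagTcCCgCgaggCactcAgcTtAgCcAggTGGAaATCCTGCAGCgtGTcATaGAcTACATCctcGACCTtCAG
Id4: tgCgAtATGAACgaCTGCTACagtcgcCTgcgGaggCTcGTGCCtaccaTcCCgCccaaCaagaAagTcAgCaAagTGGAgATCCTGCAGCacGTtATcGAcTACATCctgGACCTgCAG

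Pairs of ID genes shared 70.8% to 81.7% of the bases of this stretch, Id1 and Id2 being the most alike. The longest run without a mismatch between annotated transcripts of any 2 ID genes was 19 bases, between Id2 and Id3. The read length is not given in the sources used here.

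RefSeq's promoter table on GRCm38.p6, from 250 bases before to 50 bases after each start, held 6 of the 10 genes: Bmp4, Smad6, Id2, Id3, Id4 and Msx1. The promoters of Bmp4, Id3 and Id4 are shown because these genes were low together in 1 of the ESC libraries, and that of Id2 because it was not. They lie at chr14:46390620-46390919 (minus strand) for Bmp4, chr12:25096043-25096342 (minus strand) for Id2, chr4:136143572-136143871 (plus strand) for Id3 and chr13:48260866-48261165 (plus strand) for Id4. Capitals mark matches to 3 short motifs searched on both strands: GGCGCC, the core of a BMP response element, GTCTG with its complement CAGAC, a SMAD binding site, and CAGGTG with its complement CACCTG, an E-box.
Bmp4: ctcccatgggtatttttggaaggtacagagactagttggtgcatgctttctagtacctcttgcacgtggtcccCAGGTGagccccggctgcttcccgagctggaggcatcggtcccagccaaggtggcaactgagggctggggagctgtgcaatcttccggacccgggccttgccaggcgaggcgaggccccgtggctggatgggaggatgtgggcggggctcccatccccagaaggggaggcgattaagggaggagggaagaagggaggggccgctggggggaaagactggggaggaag
Id2: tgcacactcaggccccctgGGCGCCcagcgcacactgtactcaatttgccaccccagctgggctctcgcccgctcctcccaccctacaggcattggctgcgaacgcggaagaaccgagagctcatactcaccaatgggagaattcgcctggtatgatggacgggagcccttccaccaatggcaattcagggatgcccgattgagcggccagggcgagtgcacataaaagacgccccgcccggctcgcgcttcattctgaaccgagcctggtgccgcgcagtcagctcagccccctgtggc
Id3: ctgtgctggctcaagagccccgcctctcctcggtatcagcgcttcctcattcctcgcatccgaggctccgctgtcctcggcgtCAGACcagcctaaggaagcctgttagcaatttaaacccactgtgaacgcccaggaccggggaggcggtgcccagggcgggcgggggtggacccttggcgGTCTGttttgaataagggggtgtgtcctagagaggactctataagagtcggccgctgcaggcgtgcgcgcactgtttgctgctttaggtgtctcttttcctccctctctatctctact
Id4: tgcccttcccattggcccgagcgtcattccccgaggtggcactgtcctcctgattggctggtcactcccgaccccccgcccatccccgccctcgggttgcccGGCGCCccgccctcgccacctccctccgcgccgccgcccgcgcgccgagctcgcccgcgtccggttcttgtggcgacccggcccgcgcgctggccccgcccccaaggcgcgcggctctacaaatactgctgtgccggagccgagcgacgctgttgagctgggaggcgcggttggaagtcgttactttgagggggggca

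Positions are counted from the start, bases before it being negative. GGCGCC was found in the Id2 window at -231 and in the Id4 window at -148. Of all 32851 promoters in the table, 11.9% held it. The Id3 window held CAGAC at -167 and GTCTG at -68, a motif present in 49.6% of promoters. The E-box CAGGTG was found in the Bmp4 window at -177 and its complement CACCTG in the Msx1 window at -210, against 20.2% of all promoters. No match was found in the Smad6 window. None of the matches overlapped another.

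Library totals were 9710410 to 11425054 counts in EpiLC and 11499687 to 22879812 in ESC. Markers fit the labels: 7 of 7 naive pluripotency genes were lower in EpiLC (median log2 fold change -5.95) and 6 of 6 formative epiblast genes were higher (median 4.03). ESC replicate 3 stood apart. In it 4.34% of 14996 tested genes lay beyond 2-fold of the other ESC libraries, against at most 0.814% for any other library within its group. The measure is bulk RNA, in which fewer cells of a type and less RNA per cell cannot be told apart.

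All 10 genes passed the filter on low counts. By edgeR's quasi-likelihood test at an adjusted p under 0.05, 3 were called higher in EpiLC (Id1, Id2 and Msx1), 3 lower (Bmp7, Bambi and Id4), and 4 were not called. That is 60.0% of the genes, against 64.6% of all tested genes called in either direction (32.0% higher and 32.6% lower), so the number of calls was near the background. The median log2 fold change, EpiLC minus ESC, was 0.13, against 0.01 over all tested genes. The libraries of EpiLC and ESC did not overlap for 7 of the 10 genes (4 higher and 3 lower), against 70.2% of all tested genes (34.9% higher and 35.3% lower). Called and changed at least 2-fold were 2 higher genes, Id1 and Msx1, and 1 lower gene, Id4, against 17.0% and 12.4% of all tested genes. Without ESC replicate 3, 4 genes were called higher and 4 lower, the added calls being Id3 and Bmp4. Calls over all genes also rose in that fit, to 76.7% of 15296 genes (38.0% higher and 38.7% lower), so the count was again near the background.

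**Figure D1:**
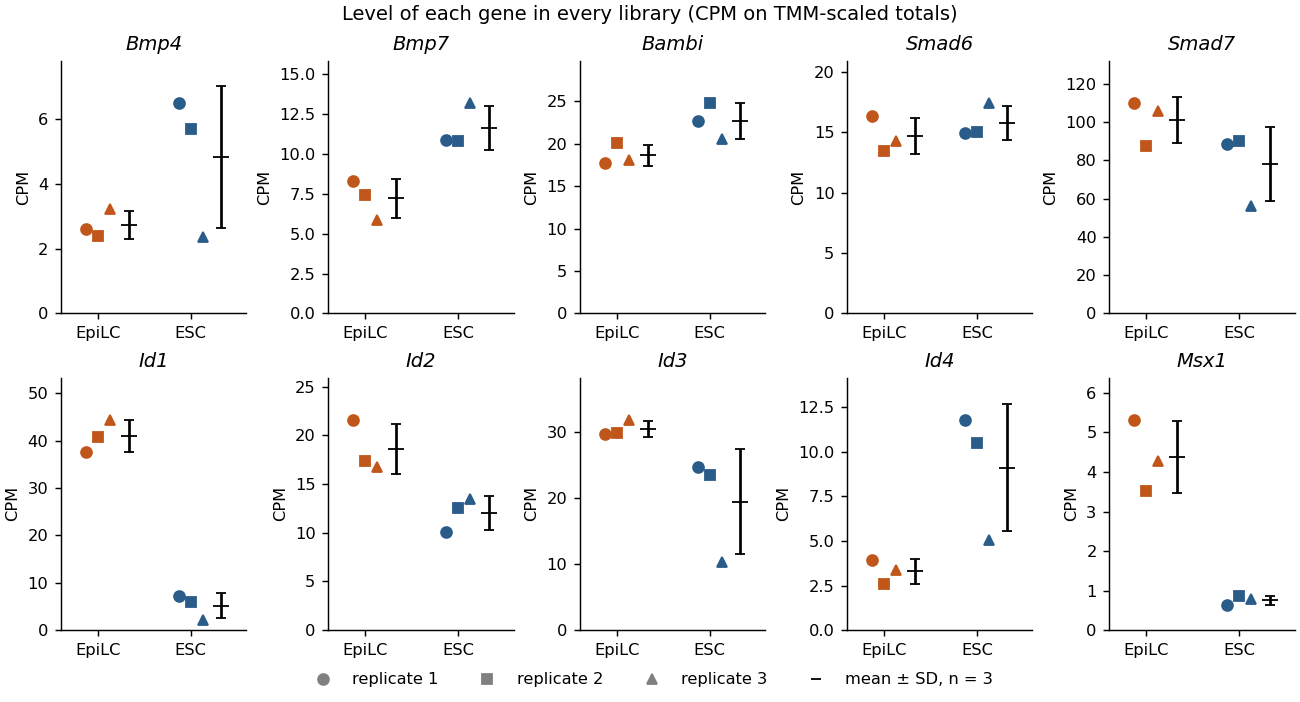
CPM on TMM-scaled library totals for each of the 10 genes, with EpiLC left and ESC right in each panel, 1 symbol per replicate and the mean ± SD (n = 3) beside them. Id1 stood at 37.7 to 44.4 CPM in EpiLC and 2.18 to 7.26 CPM in ESC, and the triangle of ESC replicate 3 lay lowest of the ESC symbols for Bmp4, Bambi, Smad7, Id1, Id3 and Id4.

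Both ligand genes stood lower in EpiLC, Bmp7 beyond the spread of the libraries. Bmp7 (ENSMUSG00000008999, chromosome 2, 172868012 to 172940321, GRCm38 as for all positions), a ligand of the same broad group as BMP5 and BMP6, had 8.33, 7.44 and 5.89 CPM in EpiLC, against 10.9, 10.8 and 13.2 CPM in ESC. CPM are read counts relative to the library's total, scaled by TMM. The groups did not overlap, and every EpiLC library was below every ESC library. Bmp7 fell, with a log2 fold change of -0.68 (SE 0.16, adjusted p = 0.00618), or -0.61 without ESC replicate 3.

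Bmp4 (ENSMUSG00000021835, chromosome 14, 46383520 to 46390669), the ligand whose loss stops mouse development around gastrulation, had 2.61, 2.39 and 3.21 CPM in EpiLC, against 6.49, 5.68 and 2.35 CPM in ESC. ESC replicate 3 lay below all EpiLC libraries, so the groups overlapped. The log2 fold change was -0.89 (SE 0.36) and not called (adjusted p = 0.0565, 3.92e-05 to 0.166 over the alternatives). Without ESC replicate 3 it was -1.16 and called (adjusted p = 3.92e-05), and without the filter on low counts it was -0.97 (adjusted p = 0.0387). Counts ran from 26 to 36 in EpiLC and from 27 to 126 in ESC, so counting error is large in the lower libraries. Within a library the log2 ratio of Bmp4 to Bmp7, per kb of exon, was -0.82, -0.78 and -0.03 in EpiLC, against 0.09, -0.08 and -1.62 in ESC. The means differed by 0.00, less than the SD of 0.45 in EpiLC and 0.94 in ESC (exact permutation test, two-sided p = 1.0).

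Bambi (ENSMUSG00000024232, chromosome 18, 3507923 to 3516404) encodes a membrane protein that resembles a type I receptor without the kinase. It had 17.8, 20.1 and 18.1 CPM in EpiLC, against 22.7, 24.8 and 20.6 CPM in ESC. The groups did not overlap, but the highest EpiLC and the lowest ESC library lay close together. The log2 fold change of -0.29 (SE 0.11) passed the threshold narrowly (adjusted p = 0.0443, 0.00165 to 0.141 over the alternatives). The call was lost with upper quartile scaling, library totals or DESeq2 and without any library other than ESC replicate 3. The table also lists a processed pseudogene, Bambi-ps1, with 11, 17 and 7 counts in EpiLC and 2, 2 and 0 in ESC, so the split of reads between the copies is uncertain.

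Neither inhibitory SMAD gene was called. Smad6 (ENSMUSG00000036867, chromosome 9, 63953076 to 64022059), whose product acts mainly on BMP receptors and SMAD1, had 16.3, 13.4 and 14.3 CPM in EpiLC, against 14.9, 15.0 and 17.4 CPM in ESC. The libraries of the groups were interleaved. Its 95% interval of the log2 fold change ran from -0.38 to 0.17 (adjusted p = 0.471), so a change of 2-fold in either direction lay outside it.

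Smad7 (ENSMUSG00000025880, chromosome 18, 75367529 to 75395935), which blocks receptors of the activin and TGF-beta branch as well, had 110, 87.6 and 106 CPM in EpiLC, against 88.5, 90.0 and 56.0 CPM in ESC. EpiLC replicate 2 lay between the ESC libraries, and ESC replicate 3 was far below the rest. The log2 fold change was 0.36 (95% interval -0.04 to 0.77, adjusted p = 0.102), and 0.16 without ESC replicate 3 (adjusted p = 0.0638). The log2 ratio of Smad6 to Smad7 within a library was -2.25, -2.21 and -2.39 in EpiLC, against -2.07, -2.08 and -1.19 in ESC. It was lower in each EpiLC library than in any ESC library, by a mean of -0.51, and by -0.21 without ESC replicate 3. An exact permutation test of 3 against 3 cannot give a two-sided p below 0.1, the value found here (adjusted p = 0.12 over the 6 ratios compared).

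The 4 ID genes did not move as a block. Id1 (ENSMUSG00000042745, chromosome 2, 152736251 to 152737410), the member most often used as a readout of BMP signalling, had 37.7, 40.7 and 44.4 CPM in EpiLC, against 7.26, 5.99 and 2.18 CPM in ESC. The lowest EpiLC library was far above the highest ESC library, and ESC replicate 3 was the lowest of all. Id1 rose by a log2 fold change of 2.92 (SE 0.29, adjusted p = 4.82e-05), and by 2.62 without ESC replicate 3.

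Id2 (ENSMUSG00000020644, chromosome 12, 25093799 to 25097140), which in the mouse embryo also marks trophoblast and is needed for several blood lineages, had 21.6, 17.4 and 16.8 CPM in EpiLC, against 10.1, 12.5 and 13.5 CPM in ESC. The groups did not overlap, and the ESC libraries lay close together. Id2 rose by a log2 fold change of 0.63 (SE 0.15, adjusted p = 0.00626), or 0.69 without ESC replicate 3.

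Id3 (ENSMUSG00000007872, chromosome 4, 136143497 to 136145755), a frequent partner of Id1 in expression, had 29.8, 29.9 and 31.9 CPM in EpiLC, against 24.7, 23.5 and 10.3 CPM in ESC. Every EpiLC library was above every ESC library, with ESC replicate 3 far below the other ESC libraries. The log2 fold change of 0.62 (SE 0.27) was not called (adjusted p = 0.0747, 0.00111 to 0.173 over the alternatives). It passed with DESeq2 (adjusted p = 0.0309), with library totals (0.0473) and without ESC replicate 1 (0.0474). Without ESC replicate 3 it was smaller, 0.33, and called (adjusted p = 0.00111).

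Id4 (ENSMUSG00000021379, chromosome 13, 48261228 to 48266026), a member best known from neural progenitors and spermatogonial stem cells, was lower in EpiLC. It had 3.91, 2.57 and 3.39 CPM in EpiLC, against 11.8, 10.5 and 5.05 CPM in ESC. The groups did not overlap, although ESC replicate 3 lay nearer to EpiLC than to the other ESC libraries. Id4 fell, with a log2 fold change of -1.52 (SE 0.33, adjusted p = 0.004), or -1.78 without ESC replicate 3.

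**Figure D2:**
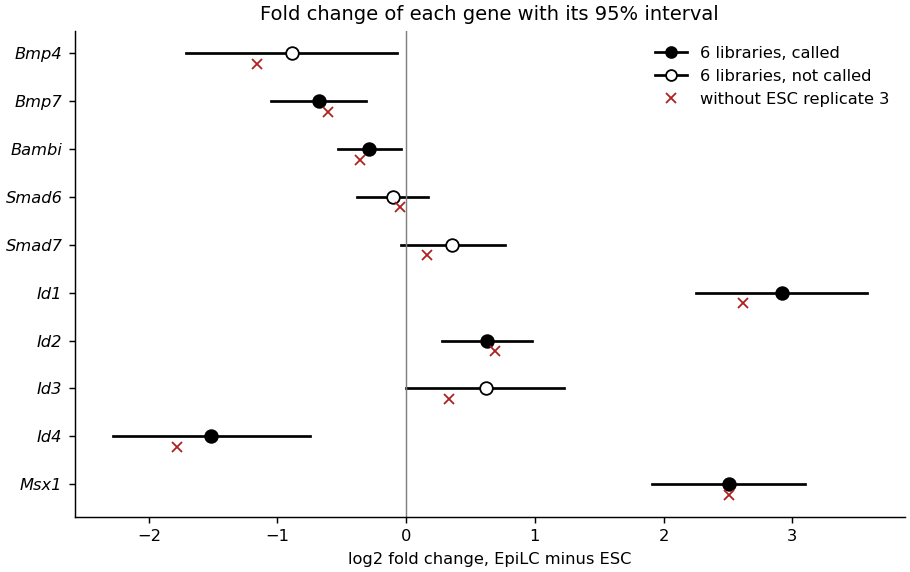
Log2 fold changes, EpiLC minus ESC, with 95% intervals from the edgeR fit to 6 libraries (filled where called, open where not), and as crosses the values without ESC replicate 3. Id1 (2.92) and Msx1 (2.51) lay farthest to the right and Id4 (-1.52) farthest to the left, and the crosses lay left of the full fit for Bmp4 (-1.16 against -0.89), Bambi, Smad7, Id1, Id3 and Id4.

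The makeup of the ID transcripts differed between the groups. Levels per kb of exon were summed over the 4 genes, since CPM of genes of different length cannot be compared. The sum was 59.0, 59.6 and 63.8 CPM per kb in EpiLC, against 27.3, 26.1 and 14.5 CPM per kb in ESC. Id1 made up 58.0% ± 2.56 of this sum in EpiLC and 18.6% ± 5.1 in ESC (SD, n = 3 each, as for the shares that follow). Id3 made up 28.0% ± 0.153 in EpiLC and 46.8% ± 6.21 in ESC. Thus Id1 held the largest share in each EpiLC library and Id3 in each ESC library. In ESC replicate 3, however, Id3 (39.7%) and Id2 (38.3%) were nearly equal, and in CPM Id2 (13.5) was above Id3 (10.3). Id4 made up 1.41% ± 0.302 in EpiLC and 10.2% ± 1.08 in ESC. Id2 made up 12.6% ± 2.17 in EpiLC and 24.4% ± 12.3 in ESC, where replicate 3 stood at 38.3% and replicates 1 and 2 at 15.1% and 19.7%.

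Ratios within a library do not depend on the library scaling. The log2 ratio of Id1 to Id3 was 0.97, 1.07 and 1.10 in EpiLC, against -1.14, -1.34 and -1.59 in ESC, a difference of 2.40. Among the 3 ratios of Id1 to another ID gene, this one had the smallest SD in EpiLC (0.07) and in ESC (0.23), and ESC replicate 3 lay only a little apart. The log2 ratio of Id1 to Id4 was 4.98, 5.70 and 5.42 in EpiLC, against 1.04, 0.93 and 0.53 in ESC, a difference of 4.53. The log2 ratio of Id1 to Id2 was 1.88, 2.30 and 2.47 in EpiLC, against 0.60, 0.01 and -1.54 in ESC, a difference of 2.52, or 1.91 without ESC replicate 3. None of these ratios overlapped between the groups, and each reached the smallest two-sided p that the exact permutation test allows, 0.1 (adjusted p = 0.12).

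E proteins are the partners that ID proteins hold back, and their transcripts gave a level to set the ID genes against. Summed over Tcf3, Tcf4 and Tcf12 they stood at 42.2 ± 0.629 CPM per kb in EpiLC and 42.4 ± 0.952 CPM per kb in ESC. Most of this sum came from Tcf3 (33.9 CPM per kb in EpiLC and 36.8 in ESC), a share that rests on the length scaling. The length was the union of all annotated exons of a gene. In CPM Tcf3 stood at 137 in EpiLC and 149 in ESC, against 71.9 and 55.5 for Tcf4 and 88.3 and 55.2 for Tcf12. In CPM without length scaling the E protein sum was higher in EpiLC (293 to 301) than in ESC (255 to 264). The ID sum in CPM lay below it in both groups (90.5 to 96.4 in EpiLC and 31 to 53.9 in ESC). ID transcripts per E protein transcript, both per kb, were 1.44 ± 0.0433 in EpiLC and 0.532 ± 0.16 in ESC. The log2 ratio differed by 1.49 (exact permutation test, two-sided p = 0.1, adjusted p = 0.12). The difference was 1.21 without ESC replicate 3 and 0.87 without length scaling, values for which no test was run. By gene, Tcf12 rose by a log2 fold change of 0.68 (88.3 ± 1.02 CPM in EpiLC and 55.2 ± 2.04 in ESC, adjusted p = 3.49e-05). Tcf4 rose by 0.37 (adjusted p = 0.00125), and Tcf3 was not called (-0.12, adjusted p = 0.0958), though called lower without ESC replicate 3 (-0.15, adjusted p = 0.011).

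**Figure D3:**
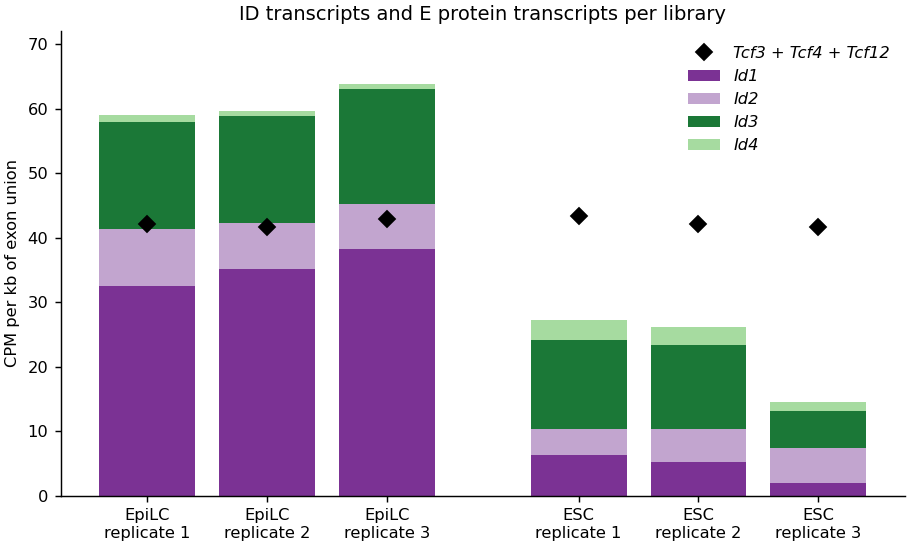
CPM per kb of exon union for Id1, Id2, Id3 and Id4 stacked in each library, EpiLC left and ESC right, with the sum over the E protein genes Tcf3, Tcf4 and Tcf12 as diamonds. The bars reached 59.0 to 63.8 in EpiLC, above the diamonds, and 14.5 to 27.3 in ESC, below them, while the diamonds lay between 41.6 and 43.4 in all 6 libraries. This order depends on the length scaling: in CPM the ID sum lay below the E protein sum in both groups.

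Msx1 (ENSMUSG00000048450, chromosome 5, 37820485 to 37824583), a homeobox repressor that BMP induces in limb, face and neural crest, had 5.32, 3.51 and 4.29 CPM in EpiLC, against 0.623, 0.856 and 0.784 CPM in ESC. All EpiLC libraries were above all ESC libraries, and ESC replicate 3 lay between the other ESC libraries. These levels rest on 41 to 53 counts in EpiLC and 9 to 19 counts in ESC. Msx1 rose by a log2 fold change of 2.51 (SE 0.26, adjusted p = 6.18e-05), which was 2.51 again without ESC replicate 3.

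Some markers of other cell types moved beside Id1 and Msx1. Their counts of calls stand against 32.0% of all tested genes called higher and 32.6% called lower. Sums of a marker list are given with and without its leading gene, the one with the largest difference between the groups, a split added after the values were seen. Of the fibroblast markers 4 of 6 tested were called higher in EpiLC, and the list summed to 26.1 to 29.8 CPM in EpiLC and 7.78 to 9.58 CPM in ESC, with Lum at 0 in EpiLC and Dcn and Postn at 0 in ESC. Without Twist1 it summed to 14.7 to 19.6 CPM in EpiLC and 5.03 to 6.58 CPM in ESC, so the groups stayed apart. Without their leading gene, the sums of the other lists overlapped between the groups or turned. Neural crest markers (2 of 4 tested higher, 1 lower) summed to 39.4 to 46.0 CPM in EpiLC and 18.4 to 26.0 CPM in ESC, but without Ets1 to 13.9 to 18.7 CPM in EpiLC and 15.4 to 24.6 CPM in ESC, which overlap. Most of that remainder was Foxd3, not called (mean 13.8 CPM in EpiLC and 16.9 in ESC). At lower level Sox10 was called higher (log2 fold change 2.82) and Tfap2a lower (-1.95). Neural markers (4 of 5 tested higher) summed to 410 to 446 CPM in EpiLC and 92.4 to 133 CPM in ESC, but without Nes to 60.2 to 80.4 CPM in EpiLC and 62.5 to 65.0 CPM in ESC. Here most of the remainder was Tubb3, not called (mean 43.4 CPM in EpiLC and 51.6 in ESC). Pax6 (log2 fold change 5.41), Zic1 (4.36) and Sox1 (0.64) were called higher, so the overlap of the sums does not describe each gene. Primitive endoderm markers (2 of 3 tested higher, 1 lower) summed to 15.1 to 16.6 CPM in EpiLC and 3.01 to 8.45 CPM in ESC, and without Dab2 to 5.52 to 5.89 CPM in EpiLC and 2.91 to 7.14 CPM in ESC, which overlap. Streak and mesoderm markers (2 of 3 tested higher) overlapped between the groups with T (19.2 to 30.8 CPM in EpiLC and 10.3 to 23.0 CPM in ESC) and without it (14.5 to 23.6 CPM in EpiLC and 10.1 to 20.8 CPM in ESC). Trophoblast and extraembryonic ectoderm markers (1 of 4 tested higher, 1 lower), with Elf5 at 0 in EpiLC, summed to 10.9 to 12.5 CPM in EpiLC and 39.3 to 39.9 CPM in ESC. Without Tfap2c the order turned, with 7.53 to 8.75 CPM in EpiLC and 2.80 to 5.31 CPM in ESC. Whether cells of these types were present, and their part in the levels of Id1, Id2 and Msx1, was not tested.

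The ESC libraries also differed among themselves in these genes. In ESC replicate 3, Id1 lay below the mean of ESC replicates 1 and 2 by a log2 difference of -1.41, which put it at the 0.5th percentile of all tested genes. Bmp4 lay at -1.20 (percentile 0.7), Id3 at -1.19 (percentile 0.8), Id4 at -1.06 (percentile 1.1) and Smad7 at -0.67 (percentile 3.9). Thus 5 of the 10 genes lay below the 5th percentile and 0 above the 95th. Bambi, Smad6, Id2, Bmp7 and Msx1 lay between -0.20 and 0.27, within the bulk of genes. For Id1, Id3 and Smad7, ESC replicate 3 was thus farther from EpiLC than the other ESC libraries were, and for Bmp4 and Id4 it was nearer. Its summed naive markers (3120 CPM) and formative markers (141 CPM) were the highest of the ESC libraries, but without Tfcp2l1 (1810 CPM) and Dnmt3b (11.8 CPM) both sums were the lowest. Its summed streak and mesoderm markers (10.3 CPM) were the lowest too. Its sums of neural (133 CPM), neural crest (26.0 CPM), primitive endoderm (8.45 CPM), trophoblast (39.9 CPM) and fibroblast markers (9.58 CPM) were the highest of the ESC libraries. The trophoblast sums were nearly equal, from 39.3 to 39.9 CPM. Without the leading gene it stayed highest for each of these lists except the fibroblast markers (6.01 CPM, against 6.58 CPM in ESC replicate 2). Whether cells of these types were present, and their part in the levels of the 10 genes, was not tested. A library that differs alone has no replicate of its own.

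**Figure D4:**
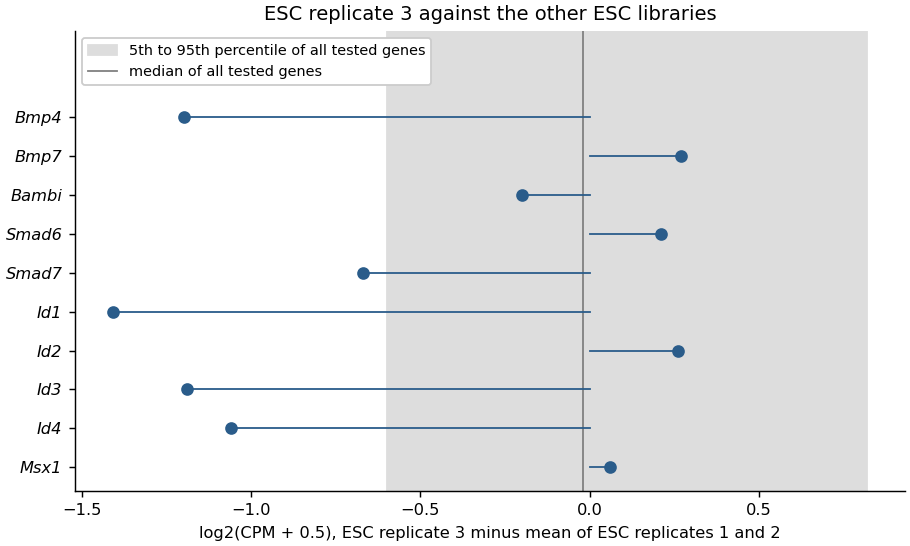
Difference in log2(CPM + 0.5) between ESC replicate 3 and the mean of ESC replicates 1 and 2 for each of the 10 genes, with the band from the 5th (-0.60) to the 95th (0.82) percentile of 14996 tested genes and their median (-0.02). Bmp4, Smad7, Id1, Id3 and Id4 lay left of the band and the other genes inside it.

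Levels per kb of exon place the genes against each other. In EpiLC, Id1 was highest (35.3 ± 2.86 CPM per kb), followed by Smad7 (22.4 ± 2.62), Id3 (17.0 ± 0.659), Id2 (7.62 ± 1.07), Smad6 (4.57 ± 0.453) and Bambi (3.68 ± 0.248). These 6 did not overlap their neighbours in the order. Below them Bmp7 (1.80 ± 0.307), Msx1 (1.41 ± 0.294) and Bmp4 (1.22 ± 0.189) overlapped from each to the next, and Id4 was lowest at 0.855 ± 0.177. In ESC, Smad7 (17.3 ± 4.25 CPM per kb) and Id3 (10.9 ± 4.47) came first and overlapped each other. From Id2 (4.93 ± 0.726) through Smad6 (4.93 ± 0.437), Bambi (4.47 ± 0.421), Id1 (4.44 ± 2.28), Bmp7 (2.89 ± 0.33) and Id4 (2.36 ± 0.926) to Bmp4 (2.15 ± 0.975) each overlapped the next, and Msx1 stood alone at the bottom (0.244 ± 0.0386). Among all tested genes Id1 lay at percentile 90.2 in EpiLC and 47.4 in ESC, and Id4 at 18.8 in EpiLC and 35.5 in ESC.

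Around these genes, the receptors and SMADs that carry a BMP signal were mostly higher in EpiLC. Of 94 other pathway genes listed by role, 69 were tested, of which 38 were called higher (against 32.0% of all tested genes), 14 lower (against 32.6%) and 17 neither. Their median log2 fold change was 0.52, against 0.01 over all tested genes. Without ESC replicate 3, 42 were called higher and 19 lower, where 38.0% of all tested genes were called higher and 38.7% lower. The filter on low counts was applied anew in that fit, so the genes tested need not be the same 69. The lists were chosen with earlier results of these data known, so the counts are a description.

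Of 12 receptor and co-receptor genes, 7 were called higher, 1 lower and 4 not, with a median log2 fold change of 0.66. Bmpr1b, a type I receptor gene, had 4.92, 5.73 and 5.80 CPM in EpiLC, against 0.208, 0.0901 and 0 CPM in ESC, where it rested on 4, 2 and 0 counts. It was all but absent from ESC, and its log2 fold change of 5.50 (SE 0.38, adjusted p = 4.18e-06) was 6.31 without ESC replicate 1. The type II receptor gene Bmpr2 had 109, 100 and 109 CPM in EpiLC, against 30.4, 32.2 and 68.6 CPM in ESC, with ESC replicate 3 nearer to EpiLC. It rose by 1.30 (adjusted p = 0.00389), or by 1.74 without that library. The activin type II receptor gene Acvr2b rose by 1.26 (65.9 ± 4.59 CPM in EpiLC and 27.5 ± 2.07 in ESC), and Rgmb, a BMP co-receptor gene, by 1.15 (15.5 ± 2.79 CPM in EpiLC and 6.93 ± 0.37 in ESC). The lower gene, picked for its result, was Eng, a co-receptor gene of endothelial cells (log2 fold change -1.10). Without ESC replicate 3 the lower calls were 2, and with 1 library left out at a time the higher calls were 6 to 7. Bmpr1a, another type I receptor gene, named here for its level, was present in both groups. It stood at 195 ± 9.27 CPM in EpiLC and 115 ± 4.43 in ESC (log2 fold change 0.76).

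Of the 4 SMAD genes that carry the signal, the 3 tested were called higher by less than 2-fold. Smad5 stood at 55.5 ± 2.51 CPM in EpiLC and 37.4 ± 0.243 in ESC (log2 fold change 0.57, adjusted p = 0.000164), and Smad4, the shared partner, at 121 ± 1.43 CPM in EpiLC and 96.3 ± 5.31 in ESC (0.33, adjusted p = 0.00231). Smad1 stood at 41.3 ± 1.23 CPM in EpiLC and 33.0 ± 5.06 in ESC (0.33, adjusted p = 0.0313). That call of Smad1 was lost without the filter on low counts and without any library other than ESC replicate 3. Smad9 was too low to be tested and stood lower in EpiLC, with 1, 3 and 1 counts there and 8, 12 and 9 in ESC. Without the filter on low counts, 1 gene of this list was called lower.

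Other ligand genes of the family were mostly at low level. Of 14, 5 were tested, with 3 called higher, 1 lower and 1 not (median 0.99). Bmp8b, a ligand gene with a role in mouse germ cell formation, had 5.22, 6.84 and 5.71 CPM in EpiLC, against 0.467, 1.13 and 1.66 CPM in ESC, and rose by a log2 fold change of 2.55 (SE 0.33, adjusted p = 0.000219). Gdf7 rose by 1.38 and Bmp6 by 0.99 (3.10 ± 0.414 CPM in EpiLC and 1.57 ± 0.194 in ESC). Gdf3, known from pluripotent cells as a ligand that can also hold BMPs inactive, stood at 123 ± 6.77 CPM in EpiLC and 147 ± 8.72 in ESC, and its fall of -0.25 (adjusted p = 0.0142) was not called without EpiLC replicate 1 or 2. Bmp8a, the uncalled gene, stood at 1.39 CPM in EpiLC and 2.10 CPM in ESC, and reads of Bmp8a and Bmp8b, which are close copies, may have been split in ways the counts do not show.

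Extracellular antagonists and modulators went both ways. Of 20, 12 were tested, with 7 called higher, 4 lower and 1 not (median 1.17). Chrdl1, a chordin-like BMP antagonist gene, had 79 counts in EpiLC and 2 in ESC, a ratio on scaled totals of 63.7 (exact 95% interval 17.0 to 535, counting error only). Bmp1, which despite its name is a protease that cleaves chordin and procollagens, rose by a log2 fold change of 2.56 (15.2 ± 1.18 CPM in EpiLC and 2.65 ± 0.496 in ESC). Nbl1, a DAN-family antagonist gene, rose by 2.59, and Fstl3, a follistatin-like inhibitor gene, by 2.25 (4.28 ± 0.767 CPM in EpiLC and 0.995 ± 0.511 in ESC). Also called higher were Crim1 (1.45), Tll1 (1.42) and noggin Nog (0.93, adjusted p = 0.0392). Nog rested on 26, 13 and 21 counts in EpiLC and 17, 24 and 10 in ESC. The 4 lower genes, picked for their results, were follistatin Fst (-1.28), Fstl1 (-1.22), chordin Chrd (-1.13) and Twsg1 (-0.18).

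Of 18 intracellular SMAD regulators, 10 were called higher, 5 lower and 3 not (median 0.44), or 11 higher and 6 lower without ESC replicate 3. Skil, a SMAD corepressor gene, rose by a log2 fold change of 1.45 (374 ± 8.06 CPM in EpiLC and 137 ± 16.0 in ESC). Ctdsp1 (1.31) and Ctdspl (1.14), genes of small phosphatases that can act on SMADs, and Zfyve16 (1.28), an endosomal SMAD-binding protein gene, rose as well. The 5 lower genes, likewise picked for their results, were Tob1 (-1.10), Usp9x (-0.86), Nedd4l (-0.84), Rnf111 (-0.54) and Stub1 (-0.21). Among them NEDD4L and STUB1 are ubiquitin ligases that mark SMADs for loss, RNF111 one that removes SMAD7 and SKIL, and USP9X frees SMAD4 of ubiquitin. The ubiquitin ligase genes of the list did not all fall, since Smurf2 was called higher and Smurf1 (0.17) was not called.

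Of 19 further genes known to respond to BMP in some tissue, 12 were tested, with 5 called higher, 2 lower and 5 not (median 0.67). Without ESC replicate 3, 8 of the 19 were called higher and 3 lower, against 38.0% and 38.7% of all genes tested in that fit. The filter on low counts was applied anew there, so the genes tested need not be the same 12. Tbx3 stood at 2.89 ± 0.54 CPM in EpiLC and 241 ± 13.3 in ESC (log2 fold change -6.39, SE 0.12). It is also a factor of the naive pluripotency network. Gata2 was lower by -1.19. Zfp423, a zinc finger partner of SMAD1 and SMAD4, rose by 2.21 (31.6 ± 2.74 CPM in EpiLC and 6.65 ± 1.46 in ESC), and Nfatc1 by 3.02 (2.37 ± 0.766 CPM in EpiLC and 0.318 ± 0.177 in ESC). The other higher genes, chosen once their values were known, were the histone demethylase gene Kdm6b (1.14), the WNT-pathway repressor gene Tcf7l1 (1.03) and the ERK phosphatase gene Dusp9 (0.81).

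Of the 4 proprotein convertases that cleave BMP precursors, Furin rose by a log2 fold change of 0.86 (32.4 ± 2.07 CPM in EpiLC and 18.0 ± 0.898 in ESC) and Pcsk6 fell, with a log2 fold change of -1.55 (28.4 ± 3.97 CPM in EpiLC and 83.4 ± 14.1 in ESC). Pcsk5 (0.36, adjusted p = 0.337) and Pcsk7 (-0.29, adjusted p = 0.107) were not called, and Pcsk7 was called lower without ESC replicate 3 (-0.43, adjusted p = 0.000573).

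**Figure D5:**
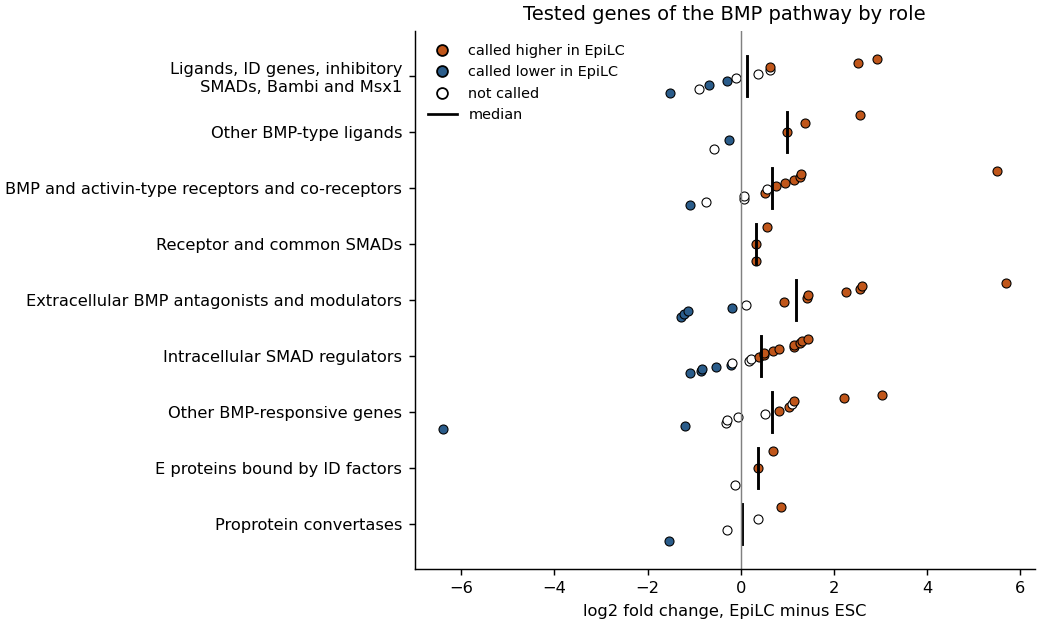
Log2 fold changes, EpiLC minus ESC, of the 10 genes (top row) and of the 69 other tested pathway genes by role, 1 point a gene, coloured where called higher or lower and open where not, with the row's median as a bar. The medians were 0.13 for the 10 genes, 0.99 for the other ligands, 0.66 for the receptors, 0.33 for the SMADs and 1.17 for the antagonists.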

How the data were processed

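RNA of 6 libraries (3 EpiLC, 3 ESC) was depleted of ribosomal RNA and about 100 ng was used for stranded libraries, as the labels' protocols state. Raw counts of reads per Ensembl gene were deposited. Among tools, cutadapt, STAR, featureCounts and DESeq2 appear in the submitters' processing notes, with mm10 as the build. The sources used here give no tool versions, annotation release or strand setting. Rows of 92 spike-in controls held 0 counts and were left out. Symbols, positions and exon unions came from GENCODE M21. Without a known strand setting, reads of overlapping genes cannot be told apart. Bmp4 shares 89 exon bases with Gm15217 and Id4 shares 82 with A330033J07Rik on the opposite strand, each with at most 1 count in a library. Id4 also shares 171 with Gm49291 on the opposite strand, for which no counts were analysed here.

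The test was edgeR's quasi-likelihood test (version 4.0.16 in R 4.3.3, with TMM scaling) after filterByExpr (10 counts, 15 in total), with the group as the only term, two-sided, adjusted by Benjamini-Hochberg over 14996 genes. The standard error was taken as the log2 fold change over the root of F. Ratios within a library used counts plus 0.5 per kb and an exact permutation test (scipy 1.17.1). Alternatives used DESeq2 1.42.0 and limma 3.58.1. A count of 0 allows up to 3 counts, or 0.135 to 0.301 CPM, which covers counting error only. The edgeR test was checked on simulated counts with few changed genes and the same spread in every library. That check does not cover a library that stands apart, as ESC replicate 3 did. All 10 members were named, and from each list up to 4 called genes of at least 1 CPM with the largest change (from lists of at most 4 genes, every tested gene). The members and lists were chosen with earlier results of these data known.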

Additional observations from a re-analysis of the deposited data

How the results depend on the processing

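The directions of the 10 genes held under each of the 13 alternatives tried, and Bmp7, Id1, Id2, Id4 and Msx1 were called under all of them. Smad6 and Smad7 were called under none (DESeq2 adjusted p = 0.611 and 0.062). Leaving out 1 library at a time gave log2 fold changes of -1.16 to -0.68 for Bmp4, -0.36 to -0.23 for Bambi and 0.33 to 0.79 for Id3. Bmp4 was called without the filter on low counts (-0.97). Bambi was not called with upper quartile scaling (-0.24), library totals (-0.22) or DESeq2 (-0.28), and Id3 was called with library totals (0.69) and DESeq2 (0.64). The log2 ratio of summed ID to summed E protein transcripts differed by 0.87 without length scaling, against 1.49. The log2 ratio of Bmp4 to Bmp7 differed by -0.54 to 0.31 with 1 library left out. Same-numbered libraries did not deviate together (correlations -0.10, 0.00 and -0.17 over 14996 genes). With so few libraries a group and ESC replicate 3 apart, these correlations cannot decide whether equal numbers mark a pair. The labels do not say so either. With the replicate block 9234 genes were called, against 9685, and Bambi (-0.28, adjusted p = 0.0542) was not among them. Low counts limit Bmp4, Id4 and Msx1 most.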
